A study of Mus musculus with 15 samples.

Results

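Apc and the genes of the beta-catenin destruction complex were followed across blood stem and progenitor cells with different Apc alleles. The members were 10 genes, Apc, Apc2, Axin1, Gsk3a, Gsk3b, Csnk1a1, Csnk1e, Btrc, Ctnnb1 and Ctnnbip1, of 18193 genes named on the array. They were found by their gene symbol in the platform annotation, which tied them to 35 of the 45101 deposited probe sets, the groups of short probes that each give 1 value per transcript. Results are given for 13 of these, namely all 4 of Apc and, for each other member, the probe set with the highest mean. The Apc probe sets are called A to D, in falling order of their mean over the 12 arrays tested.

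In cells without a Wnt signal, APC and AXIN1 hold the complex together, casein kinase 1 and then GSK3 phosphorylate beta-catenin, and the ubiquitin ligase adaptor encoded by Btrc marks the phosphorylated protein for degradation. When the complex fails, beta-catenin accumulates, enters the nucleus and switches on target genes with TCF/LEF factors. Among these targets is Axin2, which encodes a scaffold of the same complex and is widely used as a readout of the pathway. The complex acts on the protein, so the level of Ctnnb1 mRNA does not report how much beta-catenin a cell holds.

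Expression was measured with 1 array per sample in LSK cells, a bone marrow fraction of C57BL6 mice without lineage markers and with Sca1 and Kit, which holds the blood stem cells. All groups, the wild type included, had been infected in culture with a retrovirus that carries Cre recombinase and green fluorescent protein (GFP), and GFP-positive cells were sorted. They were cultured in Stemspan medium to which stem cell factor, thrombopoietin and Flt3 ligand had been added. Cre came from the virus and from no tissue promoter, so an allele named 15lox is deleted only in cells that received active Cre. The genotypes were wt/wt, 15lox/15lox with a pair of floxed alleles (the knockout of the labels), 15lox/1638N and 15lox/1572T, the latter both with a floxed and a hypomorphic Apc allele. Each mutant group had 3 arrays. Of 6 wt/wt arrays, 4 to 6 served as the control, because the means of arrays 1 to 3 lay within 0.05 of the means of arrays 4 to 6 at 96.7% of probe sets, against 23.9% for 15lox/15lox and wt/wt. The sources used here give no ages and do not say whether replicates came from separate animals, so p-values measure the spread between samples, which may be technical.

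Levels are log2 values, so that a difference of 1 is a 2-fold change in signal, and array medians ran from 6.65 to 6.84. The LSK label was checked on 8 measured marker genes, among them Kit, Cd34 and Flt3; Ly6a, the gene of Sca1, was not used here. None of the 8 passed the test against wt/wt, and their summed level was 15.37 to 15.46 in wt/wt and 15.22 to 15.54 in the mutant groups. Kit averaged 11.19 and Cd34 13.34 in wt/wt. Absence of lineage markers was not checked by these genes. Of the genes of blood lineages measured, some were dim in wt/wt, such as Cd3e at 5.11, Ms4a1 at 4.86, Itgam at 5.20 and S100a8 at 5.22. Others were bright, such as Mpo at 14.18, Pf4 at 13.71 and Mcpt8 at 13.17. Sex type was read as Xist minus the mean of Y-linked genes, with values above 0 called the female type. Of this type were 0 of the 3 wt/wt arrays, 1 of 15lox/1572T, 1 of 15lox/1638N and 2 of 15lox/15lox. Their values were 9.22 to 9.81, and those of the rest of the 12 were -1.51 to -0.90. Outside the fit, wt/wt array 3 had -8.76. The rest of the 12 lay between these extremes and are not clearly male. Sex type as a covariate sets the female type against these arrays. Each difference was tested with limma on the 12 arrays, with Benjamini-Hochberg adjusted p under 0.05 as the threshold. The comparisons with wt/wt share their control arrays.

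At the threshold, 4 Apc probe sets passed in 15lox/15lox against wt/wt, where 1.5% of all 45037 probe sets tested passed. Of these 4, 3 were lower and 1 was higher, beside 0.333% and 1.16% of all probe sets. In 15lox/1638N 2 passed, both lower, with a background of 1.39% (0.839% lower), and in 15lox/1572T 0 passed, with a background of 0.0289%. None of the other 9 members passed in any of these comparisons.

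Apc encodes the large scaffold that the alleles in this study alter, and its probe sets moved in opposite directions. Probe set B read 9.72, 9.61 and 9.93 in wt/wt. It read 8.96, 8.86 and 8.64 in 15lox/1572T and 8.47, 8.67 and 8.52 in 15lox/1638N. In 15lox/15lox it read 5.58, 6.10 and 5.69. The 15lox/15lox arrays lay below all others, the arrays of both hypomorphic genotypes lay between them and wt/wt, and the 2 hypomorphic groups overlapped. Groups without overlap between 15lox/15lox and wt/wt were found at 17.4% of all probe sets, and between 15lox/1638N and wt/wt at 26.5%.

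At this probe set 15lox/15lox cells had 6.42% of the wt/wt signal (95% interval 5.13% to 8.03%, n = 3 against 3), a log2 change of -3.96 ± 0.15 (SE; limma adjusted p = 8.8e-07). The remaining level, 5.79 ± 0.27 (SD, n = 3), lay at percentile 39.3 of all probe sets. For comparison, Y-linked probe sets on the 4 mutant arrays of the female type, which should hold no such transcript, read 3.67 to 5.61, a range that includes 1 of the 3 15lox/15lox arrays at B. In 15lox/1638N the signal was 43.7% of wt/wt (34.9% to 54.6%; limma adjusted p = 0.00295). In 15lox/1572T it was 52.5% (42% to 65.7%), with groups that did not overlap, as at 12.6% of all probe sets in this comparison, but with a limma adjusted p of 0.103. With all 6 wt/wt arrays in the fit this p was 0.0045 at a difference of -0.93. The mean of arrays 1 to 3 was 9.76 and that of arrays 4 to 6 9.75, so the p of 0.0045 may be too low.

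Between mutant genotypes, B was 6.8-fold lower in 15lox/15lox than in 15lox/1638N (limma adjusted p = 4.3e-05) and 8.18-fold lower than in 15lox/1572T (limma adjusted p = 5.4e-06). Of the 4 Apc probe sets 2 passed in each of these comparisons, where 0.187% and 1% of all probe sets passed. The hypomorphic genotypes differed from each other by -0.27 (15lox/1638N minus 15lox/1572T, 95% interval -0.59 to 0.06), and 0 of 4 Apc probe sets passed there, with a background of 0.171%.

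Probe set C followed the same order at a lower level. It read 8.93, 8.85 and 9.05 in wt/wt, 8.50, 8.30 and 7.72 in 15lox/1572T, 7.67, 8.03 and 7.24 in 15lox/1638N, and 4.92, 5.36 and 4.90 in 15lox/15lox. No array of any mutant genotype reached the wt/wt range. Of all probe sets, 17.4% did not overlap with wt/wt in 15lox/15lox, 26.5% in 15lox/1638N and 12.6% in 15lox/1572T. The signal in 15lox/15lox was 6.77% of wt/wt (limma adjusted p = 7.9e-06), with all 3 arrays within the range of the Y-linked probe sets, so that 6.77% is an upper limit for what remained. In 15lox/1638N it was 40.7% (limma adjusted p = 0.0221). In 15lox/1572T it was 58.7%, with a limma adjusted p of 0.505. The 15lox/1638N call was lost without wt/wt array 4, 5 or 6 or 15lox/1638N array 1, with adjusted p between 0.0721 and 0.0937.

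The dimmest, D, read 6.57, 6.85 and 6.43 in wt/wt and 5.06, 5.27 and 5.23 in 15lox/15lox, a signal at least 2.69-fold lower (limma adjusted p = 0.000857). The fold is a lower limit, because the 15lox/15lox mean, at percentile 29.3 of all probe sets, lay within the range of the Y-linked probe sets above. The hypomorphic groups lay between, at 5.87 ± 0.31 (SD, n = 3) in 15lox/1572T and 6.09 ± 0.18 (SD, n = 3) in 15lox/1638N, with limma adjusted p of 0.312 and 0.159 against wt/wt.

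Probe set A, which had the highest mean, went the other way. It read 9.57, 9.61 and 9.85 in wt/wt and 10.46, 10.23 and 10.66 in 15lox/15lox. In 15lox/1572T it read 10.42, 10.11 and 10.07, and in 15lox/1638N 9.84, 9.82 and 9.91. All 15lox/15lox and 15lox/1572T arrays lay above all wt/wt arrays, while 15lox/1638N overlapped with wt/wt. In the first and second of these genotypes, 17.4% and 12.6% of all probe sets did not overlap with wt/wt. The rise in 15lox/15lox was 0.77 ± 0.13 (SE), or 1.71-fold (limma adjusted p = 0.0133), and the differences of 0.52 in 15lox/1572T and 0.18 in 15lox/1638N did not pass (adjusted p = 0.412 and 0.541). The call in 15lox/15lox ended with the sex type of the array as a covariate (0.69, adjusted p = 0.103), in a fit of the 2 groups alone (0.0580), and without wt/wt array 4 or 5 or 15lox/15lox array 1 (0.0506 to 0.0782).

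**Figure D1:**
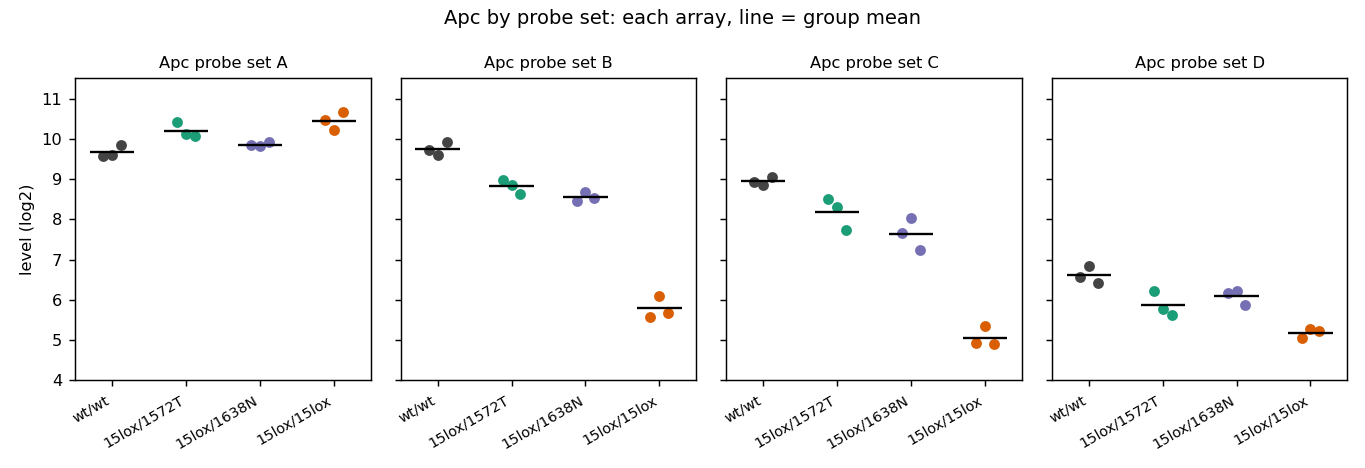
Level (log2) of each of the 4 Apc probe sets by genotype; points are single arrays (3 per genotype) and lines are group means. At B, C and D the 15lox/15lox arrays are the lowest, and at A the 15lox/15lox mean of 10.45 is the highest.

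The opposite movement was also measured within each array, as B minus A, a measure added after the data were seen. This difference was 0.07 ± 0.08 in wt/wt, -1.38 ± 0.11 in 15lox/1572T, -1.30 ± 0.13 in 15lox/1638N and -4.66 ± 0.46 in 15lox/15lox (SD, n = 3 each). No mutant array overlapped with wt/wt or, for 15lox/15lox, with the hypomorphic genotypes, and the 2 hypomorphic genotypes overlapped. No test is given, since the measure was chosen for the opposite movement already seen.

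Over the 12 arrays B had a Pearson r of 0.99 with C, 0.90 with D and -0.78 with A, given as a description, since genotype sets most of the variation. Where each probe set lies relative to the deleted part of Apc was not used here. A probe set outside that part does not check the genotype labels, and a gene-level direction for Apc depends on which probe sets are taken: the mean of all 4 differed by -2.12 in 15lox/15lox (limma adjusted p = 2.9e-06). Apc lies on chromosome 18, and its sequence is not shown.

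Among the 17557 genes with 1 symbol that are neither members nor sex-linked, those most like Apc probe set B by Pearson r over the 12 arrays were 1600012P17Rik (0.94), Chrnb4 (0.92), Agxt (0.88), Sema4b (0.87) and 4833427F10Rik (0.85). Of these 5, Sema4b, a membrane semaphorin, averaged 11.62 in wt/wt and 11.12 in 15lox/15lox (limma adjusted p = 0.00698), while the other 4 had wt/wt means of 4.90 to 5.87. Of those, Chrnb4 also passed in 15lox/15lox (-0.36, limma adjusted p = 0.0395). The 15lox/15lox means of these 4, 4.68 to 5.55, lay within the range of the Y-linked probe sets above. Most like probe set A were Bmpr2 (0.90), Ecm1 (0.88), Cdo1 (0.87), Ipcef1 (0.86) and Txndc15 (0.85). Cdo1, which encodes cysteine dioxygenase, averaged 5.19 in wt/wt and 6.46 in 15lox/15lox (limma adjusted p = 0.0161), and Ecm1 8.62 and 9.45 (adjusted p = 0.0395). These likenesses rest on group differences in which all 12 points share their genotype groups.

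The other scaffold members did not pass the test. Axin1, whose product brings the kinases and beta-catenin together, read 10.58, 10.74 and 10.80 in wt/wt and 10.59, 10.48 and 10.62 in 15lox/15lox. The groups overlapped, and the difference of -0.14 had a 95% interval of -0.36 to 0.07. In 15lox/1638N Axin1 differed from wt/wt by -0.02, and in 15lox/1572T by -0.02. Apc2, an APC relative best known from the nervous system, read 7.36, 7.24 and 7.09 in wt/wt and 7.08, 6.81 and 7.11 in 15lox/15lox, where its difference was -0.22 (-0.53 to 0.08). Its mean lay at percentile 53 of all probe sets and Axin1 at percentile 82.

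The GSK3 kinases, which phosphorylate beta-catenin after it has been primed, showed small differences. Gsk3b was bright, with 13.10, 12.95 and 13.19 in wt/wt and 13.19, 13.13 and 12.87 in 15lox/15lox. Its difference was -0.02 in 15lox/15lox (-0.27 to 0.24), 0.01 in 15lox/1638N and -0.02 in 15lox/1572T. Gsk3a read 10.31, 10.44 and 10.47 in wt/wt and 10.41, 10.51 and 10.81 in 15lox/15lox, with overlapping groups and a difference of 0.17 (-0.14 to 0.48).

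Csnk1a1, the casein kinase that primes beta-catenin, read 13.43, 13.23 and 13.33 in wt/wt and 13.37, 13.46 and 13.48 in 15lox/15lox. The difference of 0.11 had an interval of -0.09 to 0.31. Csnk1e, a related kinase with a role in Wnt signal transmission, varied most of the 9 over the 12 arrays, from 7.21 in 15lox/15lox array 3 to 8.64 in 15lox/1572T array 1. The other arrays of these groups read 8.47 and 7.99 in 15lox/15lox and 7.64 and 7.87 in 15lox/1572T, against 8.15, 8.09 and 7.85 in wt/wt. Its difference in 15lox/15lox was -0.14, with the widest interval of the 9, -0.84 to 0.56.

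Btrc, the adaptor that recognises phosphorylated beta-catenin, came nearest to a call. It read 9.36, 9.36 and 9.80 in wt/wt and 8.79, 8.89 and 9.11 in 15lox/1638N, groups that did not overlap, as at 26.5% of all probe sets in this comparison. In 15lox/1572T it read 9.08, 9.06 and 9.61, and in 15lox/15lox 9.33, 9.04 and 9.68, both overlapping with wt/wt. The 15lox/1638N signal was 67.2% of wt/wt (49.6% to 91%), a difference of -0.57 ± 0.20 (SE) with a limma adjusted p of 0.194. A further Btrc probe set differed by -0.73 in 15lox/1638N (adjusted p = 0.0771), -0.68 in 15lox/1572T (adjusted p = 0.435) and -0.21 in 15lox/15lox. Its 15lox/1638N value had the lowest adjusted p among the 22 further probe sets of the members in the 3 comparisons with wt/wt, and 0 of the 22 passed in any of the 6 comparisons. Its means of 4.91 in 15lox/1638N and 4.96 in 15lox/1572T lay within the range of the Y-linked probe sets above. The remaining Btrc probe sets averaged higher in 15lox/1638N than in wt/wt, at 8.11 against 8.09, 7.256 against 6.995 and 4.96 against 4.80. The mean over all Btrc probe sets differed by -0.17 in 15lox/1638N (limma adjusted p = 0.394).

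Ctnnb1, the gene of beta-catenin itself, was the brightest member, at percentile 99 of all probe sets. It read 13.80, 13.66 and 13.77 in wt/wt, 13.75, 13.80 and 13.64 in 15lox/1572T, 14.00, 13.79 and 13.70 in 15lox/1638N and 13.79, 13.93 and 13.92 in 15lox/15lox. Every mutant group overlapped with wt/wt. The differences were 0.14 in 15lox/15lox (-0.08 to 0.35), 0.09 in 15lox/1638N (-0.13 to 0.30) and -0.01 in 15lox/1572T (-0.23 to 0.20), which leaves changes in either direction of more than 1.5-fold outside each interval at this probe set. The other 2 Ctnnb1 probe sets, which are dimmer, differed by -0.46 (-0.92 to -0.00) and -0.62 (-1.47 to 0.22) in 15lox/1572T, with intervals that reach beyond 1.5-fold and no call. Ctnnbip1, which encodes an inhibitor that keeps beta-catenin from TCF factors, read 8.75, 9.13 and 8.71 in wt/wt and 9.07, 9.14 and 8.59 in 15lox/15lox. Its difference was 0.07 (-0.31 to 0.44) there, 0.15 in 15lox/1638N and -0.20 in 15lox/1572T.

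**Figure D2:**
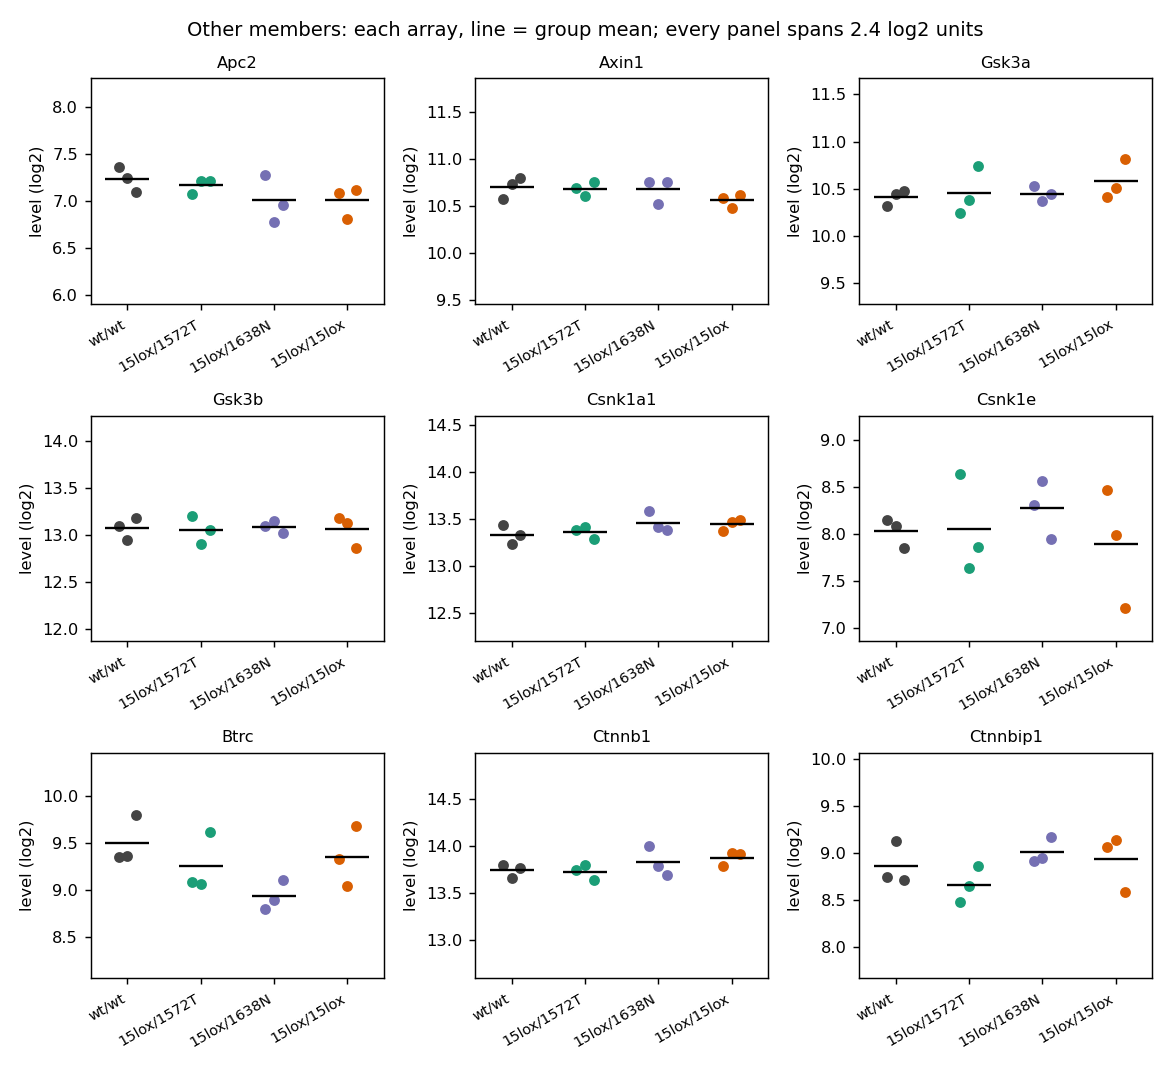
Level (log2) of the highest-mean probe set of the 9 members other than Apc; points are single arrays, lines are group means, and each panel has its own range of equal height. The genotypes overlap in nearly every panel; the 15lox/1638N arrays of Btrc lie below its wt/wt arrays.

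As a group, the 9 members other than Apc had a median log2 difference of -0.02 in 15lox/15lox, 0.04 in 15lox/1638N and -0.02 in 15lox/1572T, beside medians of -0.03, -0.00 and -0.01 over all probe sets. The median size of their differences, regardless of sign, was 0.14, 0.13 and 0.03, against 0.12, 0.14 and 0.11 over all probe sets. At an unadjusted limma p under 0.05 the counts were 0, 1 (Btrc) and 0 of 9, where 10.2%, 16% and 6.84% of all probe sets passed. The 95% intervals lay inside 2-fold in both directions for 9, 8 and 9 of the 9 members, the exception being Btrc in 15lox/1638N, and inside 1.5-fold for 7 in each comparison. Between the mutant genotypes 0 of 9 passed in each of the 3 comparisons, with a lowest adjusted p of 0.582 (Btrc, 15lox/15lox against 15lox/1638N).

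**Figure D3:**
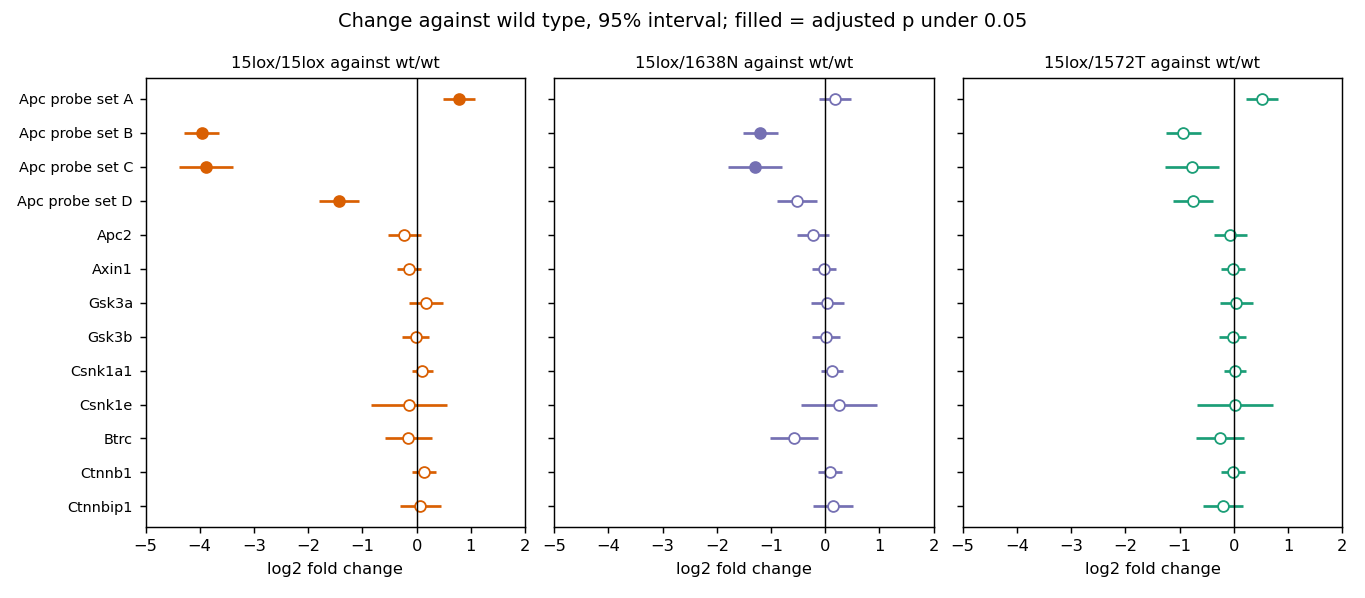
Log2 fold change against wt/wt (x axis) of the 13 probe sets in each mutant genotype; bars are 95% intervals from limma and filled points passed the adjusted p threshold. Filled points are Apc probe sets, 4 in 15lox/15lox and 2 in 15lox/1638N.

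The spread of several member probe sets went with the 3′ minus 5′ signal of control transcripts on an array. This was measured as the mean difference between the 3′ and 5′ control probe sets of actin and Gapdh. It grows as signal from the 5′ ends of transcripts is lost, and whether the loss arose in the RNA or its amplification was not tested. The difference was 0.555 to 0.655 in wt/wt, 0.485 to 0.740 in 15lox/1572T, 0.520 to 0.580 in 15lox/1638N and 0.510 to 0.835 in 15lox/15lox. Over 12 arrays the Csnk1e probe set reported above fell as this difference grew, with Pearson r = -0.92 (permutation p = 1e-05, the smallest the permutations can give, and 0.00035 when adjusted over 35 probe sets) and Spearman rho = -0.95 (permutation p = 1e-05, adjusted 0.00035). Without the 2 arrays farthest from the median, 15lox/15lox array 3 and 15lox/1572T array 3, r was -0.89.

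The brightest Gsk3b probe set, reported above, had r = -0.76 (permutation p = 0.0045, adjusted 0.0225), rho = -0.75 (permutation p = 0.0066, adjusted 0.0578) and r = -0.70 without those arrays. The third brightest, picked after its values were seen, had r = -0.93 (permutation p = 4e-05, adjusted 7e-04), rho = -0.85 (permutation p = 0.00076, adjusted 0.0133) and r = -0.80 without those arrays. The second brightest Gsk3b probe set had r = -0.83 (adjusted permutation p = 0.0117). The dimmer Gsk3b probe sets had r of -0.36, 0.30 and -0.56 (adjusted permutation p of 0.455, 0.567 and 0.156). The third brightest Ctnnb1 probe set, picked likewise, had r = -0.77 (permutation p = 0.0037, adjusted 0.0225), rho = -0.79 (permutation p = 0.0037, adjusted 0.0432) and r = -0.63 without them, the second brightest had r = -0.73 (permutation p = 0.0082, adjusted 0.0359), rho = -0.64 (permutation p = 0.029, adjusted 0.127) and r = -0.60 without them, and the brightest, reported above, had r = -0.09 (permutation p = 0.78) and rho = -0.11 (permutation p = 0.73). Gsk3a rose with the difference (r = 0.78, permutation p = 0.0032, adjusted 0.0225; rho = 0.64, permutation p = 0.028, adjusted 0.127), a relation that rested on those 2 arrays, since r was 0.29 without them. The 4 Apc probe sets had r between -0.23 and 0.23 (adjusted permutation p of 0.622 to 0.788), and without those 2 arrays r was -0.38 for A, 0.42 for B, 0.40 for C and 0.25 for D. The dimmer Axin1 probe set had r = -0.77 (adjusted permutation p = 0.0225), and -0.32 without those arrays. A dimmer Csnk1a1 probe set had r = -0.71 (adjusted permutation p = 0.0366), and -0.72 without them. A size of r over 0.7 was found for 9 of the 35 member probe sets and for 7.23% of all probe sets. With this difference as a covariate, an alternative added after the data were seen, the same number of Apc probe sets passed in each of the 6 comparisons and again none of the other members. Within a genotype there were too few arrays for a correlation.

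**Figure D4:**
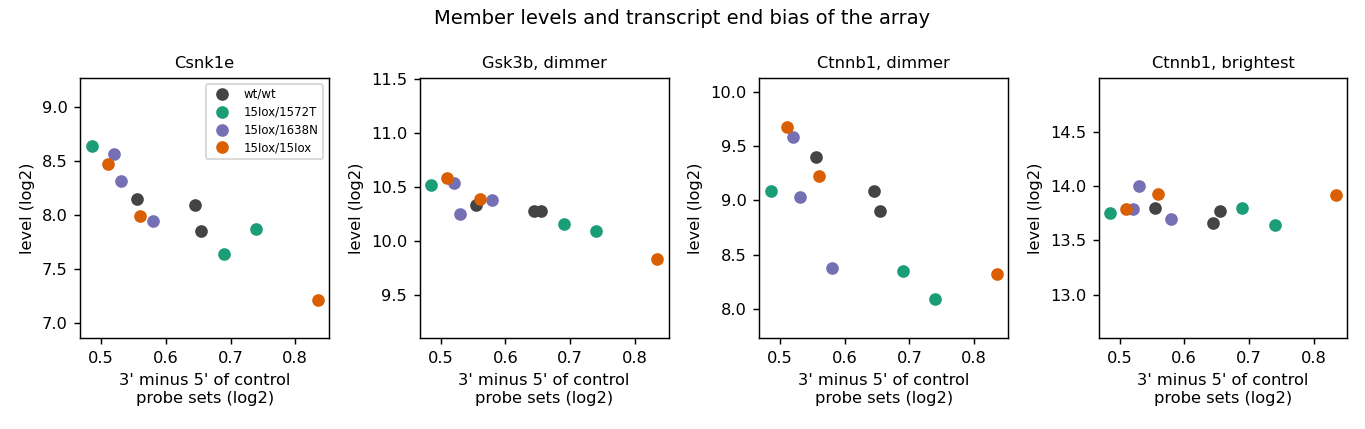
Level (log2) of 4 member probe sets against the mean 3′ minus 5′ difference (log2) of the control probe sets; each point is an array, coloured by genotype. The brightest Csnk1e probe set and the dimmer ones shown for Gsk3b and Ctnnb1 are lower on arrays with a larger difference, and the brightest of Ctnnb1 has r = -0.09.

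Around the members, 41 further genes of the complex and its surroundings were measured in 8 lists. In 15lox/15lox 2 of 41 passed as higher (Axin2 and Skp1) and 0 as lower. In 15lox/1638N 1 passed as higher (Axin2, beside 0.553% of all probe sets) and 1 as lower (Jup). In 15lox/1572T 0 of 41 passed, with 3 at an unadjusted limma p under 0.05 where 6.84% of all probe sets were. The share called was 4.88% in the first and second comparisons, beside 1.5% and 1.39% of all probe sets. The median log2 difference of the 41 was -0.01, -0.01 and 0.01.

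Axin2, the scaffold induced by beta-catenin, read 7.26, 7.38 and 7.57 in wt/wt. It read 7.69, 8.80 and 9.32 in 15lox/1572T, 11.17, 11.10 and 11.51 in 15lox/1638N and 12.28, 12.29 and 11.94 in 15lox/15lox. The 4 genotypes did not overlap on the 12 arrays, and 15lox/1572T had the widest spread. Of all probe sets, 17.4% did not overlap with wt/wt in 15lox/15lox, 26.5% in 15lox/1638N and 12.6% in 15lox/1572T. Of the wt/wt arrays left out of the fit, array 3 read 8.07, above 15lox/1572T array 1. Axin2 rose by 4.77 ± 0.32 (SE) in 15lox/15lox (limma adjusted p = 1.9e-05) and by 3.86 ± 0.32 in 15lox/1638N (adjusted p = 0.00023), while the 1.20 of 15lox/1572T had an adjusted p of 0.446. It was higher in 15lox/15lox than in 15lox/1572T by 3.56 (adjusted p = 0.000165) and in 15lox/1638N than in 15lox/1572T by 2.65 (adjusted p = 0.00648). The 0.91 between 15lox/15lox and 15lox/1638N did not pass (adjusted p = 0.515). As the mean over the probe sets of Axin2 the differences were smaller, at 2.94 in 15lox/15lox, 2.34 in 15lox/1638N and 0.72 in 15lox/1572T. Without 15lox/1572T array 1, the lowest of its group, the 15lox/1572T difference was 1.66 (adjusted p = 0.0318), and in a fit of the 2 groups alone 15lox/1638N against 15lox/1572T had an adjusted p of 0.202. At Apc probe set B the 2 hypomorphic genotypes overlapped and 15lox/15lox lay 6.8-fold below 15lox/1638N; the difference in pattern between Axin2 and Apc was not tested.

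The sequences before the starts of Axin2, which rose, and of Ctnnb1, which did not pass the test, are shown because they carry this contrast between the feedback scaffold and the substrate of the complex. Each is 250 bases up to the transcription start on the + strand, from RefSeq with build GRCm38.p6, at chr11:108920099-108920348 and chr9:120933150-120933399.
Axin2: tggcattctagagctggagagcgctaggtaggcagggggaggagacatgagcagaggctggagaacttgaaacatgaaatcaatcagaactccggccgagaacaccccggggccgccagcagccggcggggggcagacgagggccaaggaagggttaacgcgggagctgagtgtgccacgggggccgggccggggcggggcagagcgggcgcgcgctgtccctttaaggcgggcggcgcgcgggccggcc
Ctnnb1: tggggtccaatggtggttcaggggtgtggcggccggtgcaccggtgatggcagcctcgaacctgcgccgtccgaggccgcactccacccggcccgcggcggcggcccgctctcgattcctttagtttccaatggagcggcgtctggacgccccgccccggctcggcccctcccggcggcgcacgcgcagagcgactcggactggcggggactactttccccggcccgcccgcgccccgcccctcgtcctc
The TCF/LEF motif CTTTGAT was searched on both strands, as CTTTGAT and ATCAAAG, in windows of 300 bases that add the first 50 bases after the start. It was in 0 of the 15 windows of Axin2 and of the 6 members in the table (Apc2, Csnk1e, Ctnnb1, Ctnnbip1, Gsk3a and Gsk3b), and in 3.73% of all 32851 windows. Capitals would mark a match, so neither sequence has any, which says only that these letters are not in these windows.

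Skp1, listed under its older symbol Skp1a, links the F-box protein of Btrc to the rest of the ubiquitin ligase and serves many other F-box proteins. It read 13.04, 13.03 and 12.87 in wt/wt, 13.03, 12.97 and 13.03 in 15lox/1572T, 13.14, 13.27 and 13.37 in 15lox/1638N and 13.61, 13.37 and 13.68 in 15lox/15lox. The 15lox/15lox and 15lox/1638N arrays lay above the wt/wt arrays. Groups did not overlap at 17.4% and 26.5% of all probe sets in these comparisons. The rise in 15lox/15lox was 0.57 ± 0.10 (SE), or 1.49-fold (limma adjusted p = 0.0183), and the 0.28 of 15lox/1638N had an adjusted p of 0.220. The 15lox/15lox call ended with sex type as a covariate (adjusted p = 0.118), in a fit of the 2 groups alone (0.0894), and without wt/wt array 4, 5 or 6 or 15lox/15lox array 1 or 3 (0.0596 to 0.0833). Skp1 was also higher in 15lox/15lox than in 15lox/1572T, by 0.54 (limma adjusted p = 0.0303). This call ended with the replicate number as a block (0.118), but also on the same 9 mutant arrays without the block (0.0880), with sex type (0.0810), with the 2 groups alone (0.242) and without any 1 of 8 of the 12 arrays (0.0544 to 0.126): wt/wt 4 or 5, 15lox/15lox 1 or 3, 15lox/1572T 1, 2 or 3, or 15lox/1638N 2.

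Jup encodes plakoglobin, a relative of beta-catenin at cell junctions. It read 11.26, 11.17 and 10.89 in wt/wt, 10.24, 10.72 and 10.33 in 15lox/1572T, 10.27, 9.72 and 10.29 in 15lox/1638N and 10.51, 10.06 and 10.12 in 15lox/15lox. All mutant arrays lay below the wt/wt arrays. Groups did not overlap with wt/wt at 17.4% of all probe sets in 15lox/15lox, 26.5% in 15lox/1638N and 12.6% in 15lox/1572T. The fall was called in 15lox/1638N (-1.01 ± 0.19, SE; limma adjusted p = 0.0306), while 15lox/15lox (-0.88) and 15lox/1572T (-0.68) had adjusted p of 0.0522 (0.0205 to 0.270 over the alternative fits) and 0.478; whether the fall differs between genotypes was tested by the comparisons between mutants, and none passed for Jup. The 15lox/1638N call ended with sex type as a covariate (0.0635) and without wt/wt array 4, 5 or 6 or 15lox/1638N array 1 or 2 (0.0592 to 0.131).

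Some markers of other blood cells differed between the genotypes. Over all probe sets 1.5% passed in 15lox/15lox, 1.39% in 15lox/1638N and 0.0289% in 15lox/1572T against wt/wt. In bulk samples fewer cells of a type and less RNA per cell cannot be told apart. The 7 dendritic cell and MHC class II genes had a summed level of 13.04 to 14.26 in wt/wt. This level was 12.12 to 12.96 in 15lox/1572T, 10.84 to 11.80 in 15lox/1638N and 11.71 to 13.12 in 15lox/15lox. All 7 had lower means in each mutant, with median differences of -1.43, -1.85 and -1.59 in that order. At the threshold 0, 3 (H2-Eb1, Cd74 and Ciita) and 1 (Ciita) of the 7 passed. All 5 T cell genes had lower means in each mutant. Only Cd3g passed, in each mutant, from a mean of 6.09 in wt/wt to 4.64 to 4.82. These mutant means lay within the range of the Y-linked probe sets above. Of 6 monocyte genes Cd14 passed as higher in each mutant and Ccr2 in 15lox/15lox and 15lox/1638N. Csf1r, Itgam, Adgre1 and Ly86 were lower in 15lox/1638N without a call, and the median of the 6 was -0.28 there. Of 5 B cell genes Ebf1 passed as lower in 15lox/15lox and 15lox/1638N, and of 7 neutrophil genes Prtn3 passed as higher in 15lox/1638N. None of the 4 erythroid, 5 mast cell or 5 megakaryocyte genes passed against wt/wt. The part of these cells in the values of Jup, Skp1, Btrc and the Apc probe sets was not tested.

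In the other lists 0 genes passed against wt/wt. They were the 4 casein kinase 1 relatives, the 9 subunits of the phosphatase PP2A, the 3 regulators of Axin turnover (Tnks, Tnks2 and Rnf146), the 6 inputs that inhibit the complex (the Dvl genes, Frat1, Frat2 and Gskip) and the 5 partners of Apc at microtubules and the cell cortex. The PP2A subunits differed by -0.27 to 0.05 in 15lox/15lox and the Axin turnover genes by 0.00 to 0.33. Among the 5 partners, Arhgef4, whose product is activated by APC binding, had the lowest value in each mutant, -0.86 in 15lox/1638N (limma adjusted p = 0.131), -0.47 in 15lox/15lox and -0.42 in 15lox/1572T, and was picked after its values were seen.

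**Figure D5:**
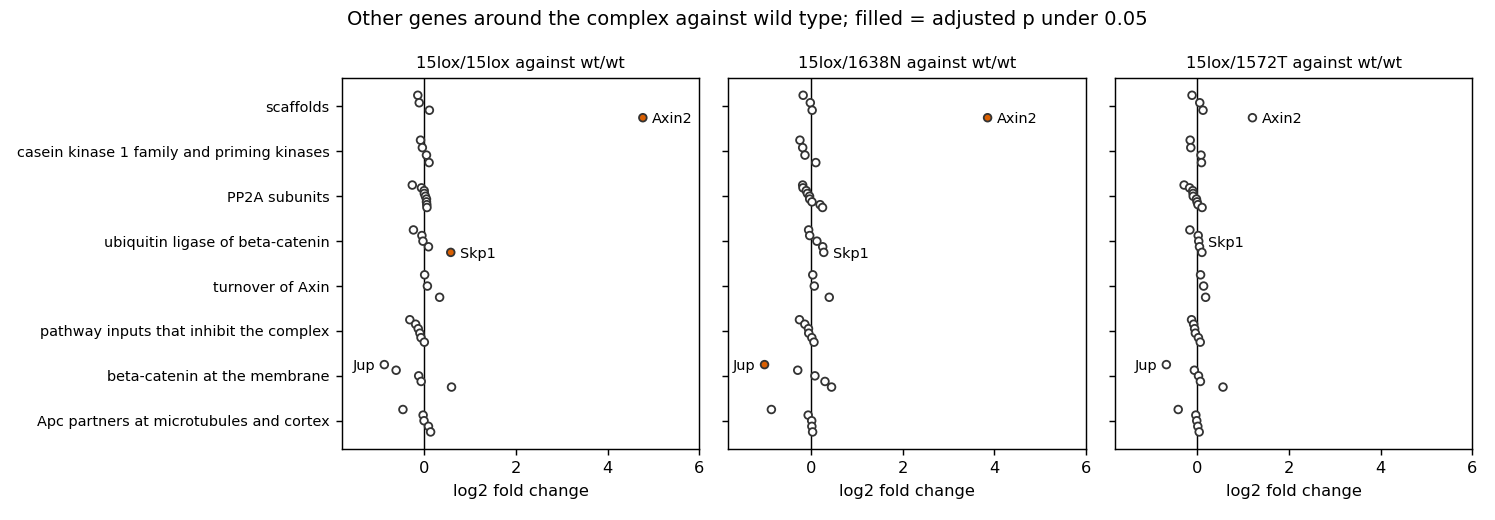
Log2 fold change against wt/wt (x axis) of the 41 further genes of the complex, by list (rows), in each mutant genotype; each point is a gene and filled points passed the adjusted p threshold. Axin2 stands far to the right in 15lox/15lox (4.77) and 15lox/1638N (3.86), and most other genes lie near 0.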

How the data were processed

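RNA of sorted cells was amplified with Nugen Ovation V2 and hybridised to 15 arrays, per the labels' protocols. The authors deposited log2 probe set values, a scale read from the range of the values; the submitters' processing notes name RMA and mm9, while versions and settings of these steps were not given in the sources used here. Of 45101 probe sets, 64 controls were left out of the tests. Symbols came from the platform annotation (34945 probe sets with 1 symbol, 932 with several, 9160 unnamed), and the symbols of the 10 members match their Entrez identifiers. Limma 3.58.1 in R 4.3.3 (lmFit, eBayes) was fitted to 12 arrays, with 8 residual degrees of freedom, on the deposited values without a filter or further normalization, and was tested on simulated data. Tests were two-sided, and p was adjusted within each contrast over 45037 probe sets. Percentiles are among all probe set means. List sums add unlogged values and are given as log2. Members and lists were chosen with earlier results of these data known. Named genes are all members, Axin2, listed genes past the threshold in a contrast with wt/wt, and 5 genes most like each of 2 Apc probe sets. Marker genes that passed against wt/wt are named, and some that did not pass are named as examples of level or direction. The number of arrays limits the precision. Alternatives covered the control arrays, samples fitted, filter, quantile normalization, eBayes options, sex type, the replicate number as a block, choice of probe set, the 3′ minus 5′ difference and each array left out. Same-numbered arrays of 15lox/15lox and 15lox/1572T correlated in their deviations from the group means at 0.14 to 0.21, over 0.1 in 3 of 3 pairs. Differently numbered arrays were not set beside them, so this does not show pairing, and the labels give none. In each of the other 5 comparisons, with wt/wt arrays 1 to 3, at most 2 of 3 pairs were over 0.1, with up to 0.38 for 15lox/15lox and 15lox/1638N. The numbers were not taken to pair samples in the main fit, and the block is given as an alternative only.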

Additional observations from a re-analysis of the deposited data

Results flagged for a closer look

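The Btrc probe set reported above read 9.796 on wt/wt array 6, far above the other 5 wt/wt arrays, which read 9.36 to 9.52; the gap to the nearest was 0.63 of the range of the group, above Dixon's 95% critical value for 6 samples. Wild-type groups of 16 probe sets were examined in this way, and with independent arrays chance alone would flag about 1 group in 20. Without wt/wt array 6 the Btrc difference in 15lox/1638N was -0.43 (limma adjusted p = 0.494).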

How the results depend on the processing

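Over the alternatives, 2063 of 2124 single values of members, Axin2, Skp1 and Jup kept their side of the threshold with no called value turned in sign. Of these, 77 uncalled values changed sign, 73 of them among the 9 other members, as with Gsk3b in 15lox/15lox (-0.04 to 0.06 against -0.02). Those of Apc probe set B in 15lox/15lox ran from -4.12 to -3.86, always past it. Of 1215 values of the 9 other members 1 changed side, Btrc in 15lox/1638N, which passed with all 6 wt/wt arrays (-0.57, adjusted p = 0.0344). The mean of the 4 Apc probe sets turned the sign of probe set A, to -2.12 in 15lox/15lox and -0.71 in 15lox/1638N against wt/wt, and to -1.42 and -1.64 in 15lox/15lox against 15lox/1638N and 15lox/1572T, by its construction; in 15lox/1572T against wt/wt, where neither passed, it was -0.48. That setting has 1 member probe set per gene, so 1 member passed in each of these 4 comparisons. With the highest-mean probe set per gene, counts of members called in the comparisons in which any passed were 1, 0, 0 and 0, and 20 probe sets passed in 15lox/1572T.

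The number of probe sets called depended on the setting, and the cause was not tested. Counts with all 6 wt/wt arrays may be too high, since arrays 1 to 3 may not be independent of arrays 4 to 6. With all 6 wt/wt arrays 1955, 3908 and 283 passed in 15lox/15lox, 15lox/1638N and 15lox/1572T against wt/wt, in place of 674, 627 and 13. Between mutants 220, 697 and 157 passed in place of 84, 451 and 77. Members called were then 4, 4 and 3 against wt/wt and 4 in 15lox/15lox against 15lox/1638N. With only the 2 groups fitted 1134 and 1 passed in 15lox/1638N and 15lox/1572T against wt/wt, 2, 255 and 13 between mutants, and 1 member in 15lox/15lox against 15lox/1638N. With trend and robust options 21 passed in 15lox/1572T, as with the 3′ minus 5′ covariate, and 133 in 15lox/15lox against 15lox/1638N. With sex type 346 and 392 passed in 15lox/15lox and 15lox/1638N against wt/wt and 52 between them.

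Blocks needed other arrays than the 12. With the replicate block on all 15 arrays 1046 and 31 passed in 15lox/1638N and 15lox/1572T against wt/wt, with 1 member in the latter (Apc probe set B); on the same arrays without it these were 3908, 283 and 3. With the block on the 9 mutant arrays 38 and 33 passed in 15lox/1638N against 15lox/15lox and 15lox/1572T, and 22 and 40 on those arrays without it, a fit added after the data were seen. Jup in 15lox/1638N had an adjusted p of 0.0836 with the block and 0.00758 on the same 15 arrays without it. For Axin2 in 15lox/1638N against 15lox/1572T these were 0.0705 and 0.0477 on the 9 arrays. Among main-fit calls of members, Axin2, Skp1 and Jup, the block fits ended these and that of Skp1 given above, which the 9 arrays without the block ended too. Calls made only with all 15 arrays also changed. Members called in 15lox/1638N against wt/wt were 4 without the block and 2 with it. Limma adjusted p went from 0.0205 to 0.191 for Jup in 15lox/15lox and from 0.0464 to 0.217 for Skp1 in 15lox/1638N.

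Leaving out each array, 387 to 753, 159 to 881 and 7 to 25 probe sets passed against wt/wt, with 3 to 4, 1 to 2 and 0 members. Between mutants these were 24 to 185, 329 to 496 and 39 to 89, with 2 to 3, 2 and 0 members.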
